A study of Mus musculus with 6 samples.

Results

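The genes described here encode the nuclear subunits of the mitochondrial respiratory chain and of ATP synthase, together with a few assembly factors and other genes that share their names. They were chosen by gene symbol alone: names beginning with Nduf followed by a, b, c, s or v, Sdha to Sdhd, names beginning with Uqcr, Cyc1, names from Cox4 to Cox8, and names beginning with Atp5, with pseudogene names left out. This rule took 93 of the 24062 symbols in the files. By symbol, 38 were placed in complex I, 7 are complex I assembly factors (Ndufaf), and 4 were placed in complex II, 9 in complex III, 18 in complex IV and 17 in complex V. The symbol does not always name a structural subunit. Atp5s and Atp5sl, the latter annotated as Dmac2, are counted with complex V, and Ndufa4l2 with complex I, without being taken as structural subunits. In all, 87 of the 93 had enough counts to be tested. RNA was sequenced from the ventral dentate gyrus, the granule cell layer and its surroundings in the part of the hippocampus most often studied for stress and mood. All mice were male C57black 6. The controls were not stressed, and the other group received chronic restraint stress, a repeated confinement used as a psychological stressor. Each group had 3 libraries, which the labels call biological replicates without saying whether 1 library holds 1 animal, and the labels give no age, allele or drug.

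Oxidative phosphorylation passes electrons from NADH through complex I, or from succinate through complex II, to coenzyme Q, then through complex III and cytochrome c to complex IV, which reduces oxygen. Complexes I, III and IV pump protons across the inner mitochondrial membrane, and complex V, the ATP synthase, uses the returning protons to make ATP. Neurons depend on this pathway to pay for ion pumping and synaptic transmission, and most of its subunits are encoded in the nucleus, while a core set is encoded in mitochondrial DNA and was not analysed here.

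Promoter sequences are shown first because transcription factors that bind near the start sites of these genes, NRF1, the ETS factor GABPA and YY1, are the textbook route by which nuclear genes of the respiratory chain are transcribed together. RefSeq promoter windows of 300 bases, 250 before and 50 after the start, were found for 76 of the 93 genes, in 82 windows. The letters searched on both strands were GCGCA, any base and then GCGC for NRF1, CCGGAAG for ETS/GABPA and AAGATGGCG for YY1. One gene per complex is printed, the tested gene whose upstream stretch held the most of these motif kinds, with ties broken by transcript level. Only the longest run of the upstream bases outside annotated exons of either strand is given, 5′ to 3′ on the gene's strand, and capitals mark the matches. No complex II gene had a match in such a run. Build is GRCm38.p6, and all 4 genes lie on the minus strand.
Ndufb6 (complex I, chr4:40279422-40279671): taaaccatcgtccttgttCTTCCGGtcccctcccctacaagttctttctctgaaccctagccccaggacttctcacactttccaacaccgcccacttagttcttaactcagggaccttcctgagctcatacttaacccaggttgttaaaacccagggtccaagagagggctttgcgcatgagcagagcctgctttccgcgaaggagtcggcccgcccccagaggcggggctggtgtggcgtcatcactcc
Uqcrh (complex III, chr4:116075072-116075268): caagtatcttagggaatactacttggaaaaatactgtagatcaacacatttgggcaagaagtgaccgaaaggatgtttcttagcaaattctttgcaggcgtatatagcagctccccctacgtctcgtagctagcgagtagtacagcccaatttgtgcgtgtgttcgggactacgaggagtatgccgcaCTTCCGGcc
Cox6a1 (complex IV, chr5:115348982-115349129): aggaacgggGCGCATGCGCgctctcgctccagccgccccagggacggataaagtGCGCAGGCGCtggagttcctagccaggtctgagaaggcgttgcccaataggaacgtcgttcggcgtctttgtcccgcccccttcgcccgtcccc
Atp5h (complex V, chr11:115419963-115420127): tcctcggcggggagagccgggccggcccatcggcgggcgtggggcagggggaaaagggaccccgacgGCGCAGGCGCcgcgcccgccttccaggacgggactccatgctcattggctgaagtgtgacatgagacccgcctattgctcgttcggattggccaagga
Ndufb6 carried an ETS/GABPA match beginning 232 bases before its start, and Uqcrh carried one 10 bases before its start. Cox6a1 carried NRF1 matches 162 and 117 bases before its start, and Atp5h carried one 141 bases before.

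An NRF1 match stood in 24.4% of the windows of these genes and in 4.6% of all 32851 RefSeq windows. For ETS/GABPA the shares were 20.7% and 8.86%, and for YY1 they were 11% and 1.4%. At least 1 of the 3 motifs was present in 40 windows, or 48.8%, against 13.6% of all windows. The windows of these genes were also richer in G and C, with a median of 58.0% against 52.7%, and in CpG, with a median of 20 per window against 7. The letters of all 3 motifs contain CG. The windows compared were not matched for CpG content or limited to tested genes, so the shares are a description. Other letters were less different: GGGCGG, the GC box, stood in 42.7% against 35.7%, CCAAT in 42.7% against 37.4%, and TATAAA in 9.76% against 13.6%. TCAAGGTCA, the motif of the estrogen-related receptors, was rare in both, at 2.44% and 0.423%. Counted by gene, any of the 3 motifs was found for 15 of 33 complex I genes, 3 of 6 assembly factors, 3 of 3 complex II genes, 3 of 5 complex III genes, 3 of 13 complex IV genes and 11 of 16 complex V genes. A match describes letters in a window and does not show that a factor binds there.

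**Figure D1:**
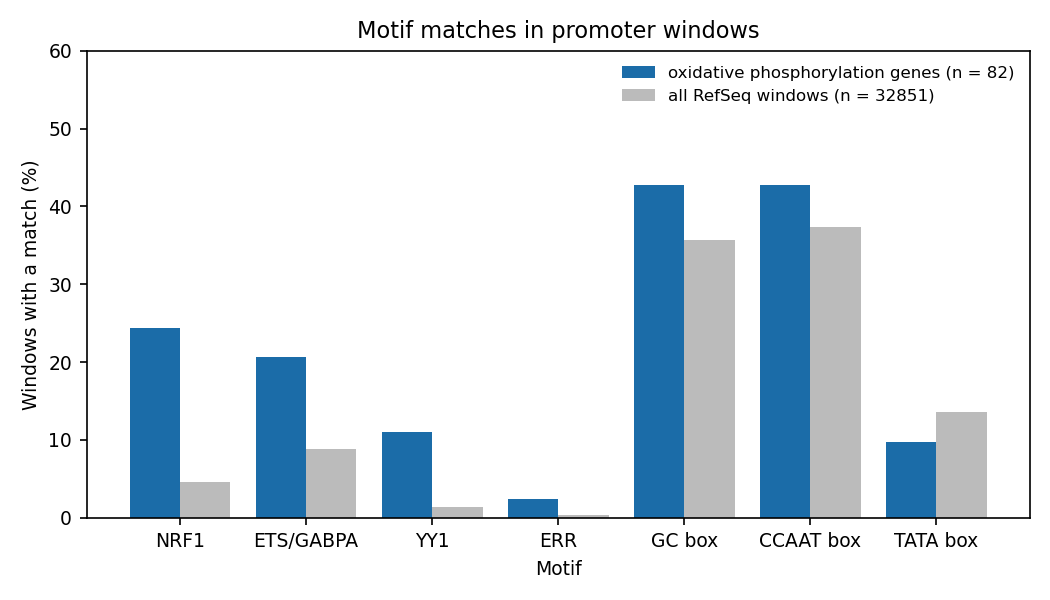
Share of promoter windows of 300 bases with at least 1 match to each motif, in percent, for the 82 windows of oxidative phosphorylation genes (blue) and for all 32851 RefSeq windows (grey). NRF1, ETS/GABPA and YY1 matches were more frequent in the blue bars, at 24.4%, 20.7% and 11%, while the GC box, CCAAT box and TATA box shares lay closer together.

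Gene counts per library ran from 8305753 to 10107953, so that 3 counts, the most that a count of 0 allows, correspond to 0.297 to 0.361 CPM (CPM, counts scaled to a common library total). The library of stress replicate 1 stood apart from the others. All 9 markers of choroid plexus epithelium were higher there than in any other library, with a summed level of 4819 CPM against 25.5 to 28.1 in controls and 29.5 to 33.4 in the other stress libraries. Of the 9, Kcnj13 and Otx2 were at 0 in both other stress libraries. Summed ependymal markers reached 87.9 CPM in it against 6.96 to 10.7 elsewhere, striatal neuron markers 460 against 56.5 to 63.8, and oligodendrocyte markers 4350 against 1817 to 2855. All 6 markers of CA3 pyramidal neurons, of the neighbouring hippocampal field, were also highest there, and their sum was above the controls in every stress library, at 1612, 1110 and 1166 CPM against 913 to 1048. Of these 6, 3 were higher at an unadjusted p under 0.05 in edgeR's quasi-likelihood test, against 3.86% of all tested genes. Their median log2 fold change was 0.37, or 0.14 without stress replicate 1. At that threshold 4 of 4 tested choroid plexus, 3 of 4 ependymal and 4 of 5 striatal markers were higher, all highest in stress replicate 1. Lower were 4 of 5 thalamic and habenular, 3 of 6 meningeal fibroblast, 2 of 6 astrocyte and 1 of 6 interneuron markers, against 4.85%. In each of these lists 0 markers passed after adjustment with all 6 libraries. Without stress replicate 1, the thalamic and habenular markers Rora and Slc17a6 were lower at an adjusted p under 0.05 in edgeR's quasi-likelihood test. Their log2 fold changes were then -0.61 (adjusted p = 0.040) and -1.03 (adjusted p = 0.016), where 0.211% of all tested genes were called lower. Markers of granule neurons, the defining cells of the region, were present in every library and summed to 637 to 852 CPM in controls, to 485 in stress replicate 1 and to 776 and 893 in the other stress libraries. Astrocyte markers summed to 6846 to 7776 CPM in controls and 5980 to 6861 in stress libraries, and thalamic and habenular neuron markers to 246 to 281 against 134 to 176. The part of these markers in the results was not tested. Values that moved by over 1.5 times or turned sign without stress replicate 1 are given both ways.

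No oxidative phosphorylation gene passed the test for a difference between stress and control. Of the 87 tested, 0 were higher and 0 were lower at an adjusted p under 0.05 in edgeR's quasi-likelihood test, where 0.0285% of all 14058 tested genes were called, all of them lower. The lowest adjusted p of the 87 was 0.534, and DESeq2 and limma-voom also called 0. At an unadjusted p under 0.05, 2 of the 87 were higher, Ndufa7 and Atp5d, against 3.86% of all tested genes, and 0 were lower, against 4.85% (8.71% of all tested genes in either direction). Estimates above 0 outnumbered those below. 68 of the 87, or 78.2%, had a log2 fold change above 0, against 51.0% of all tested genes, and the median was 0.065 against 0.004. The count and the median are descriptions, since genes of 1 pathway are not independent of each other. In bulk tissue, a change in the share of cells of a type and a change in RNA per cell cannot be told apart.

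Stress replicate 1 was the highest library for most of these genes. Relative to the mean of the controls, the median log2 level of the 87 genes was -0.03, -0.01 and 0.03 in the 3 controls. It was 0.14, -0.003 and 0.05 in stress replicates 1, 2 and 3. Stress replicates 2 and 3 thus lay within or close to the range of the controls, and stress replicate 1 lay above it. 55 of the 87 genes had their highest value in stress replicate 1, which is 63.2%, against 25.7% of all tested genes. In that library 63 genes lay above all 3 controls, or 72.4% against 31.9% of all genes, compared with 15 (17.2% against 24.6%) in stress replicate 2 and 29 (33.3% against 28.5%) in stress replicate 3. Without stress replicate 1, 49 of the 87 genes had a log2 fold change above 0, against 6887 of all 14188 genes then tested (48.5%). The median of the 87 was then 0.022. Of these genes 0 passed edgeR's quasi-likelihood test, with a lowest adjusted p of 0.262 for Ndufa7. Of all genes tested without that library, 0.0775% were called higher and 0.211% lower.

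**Figure D2:**
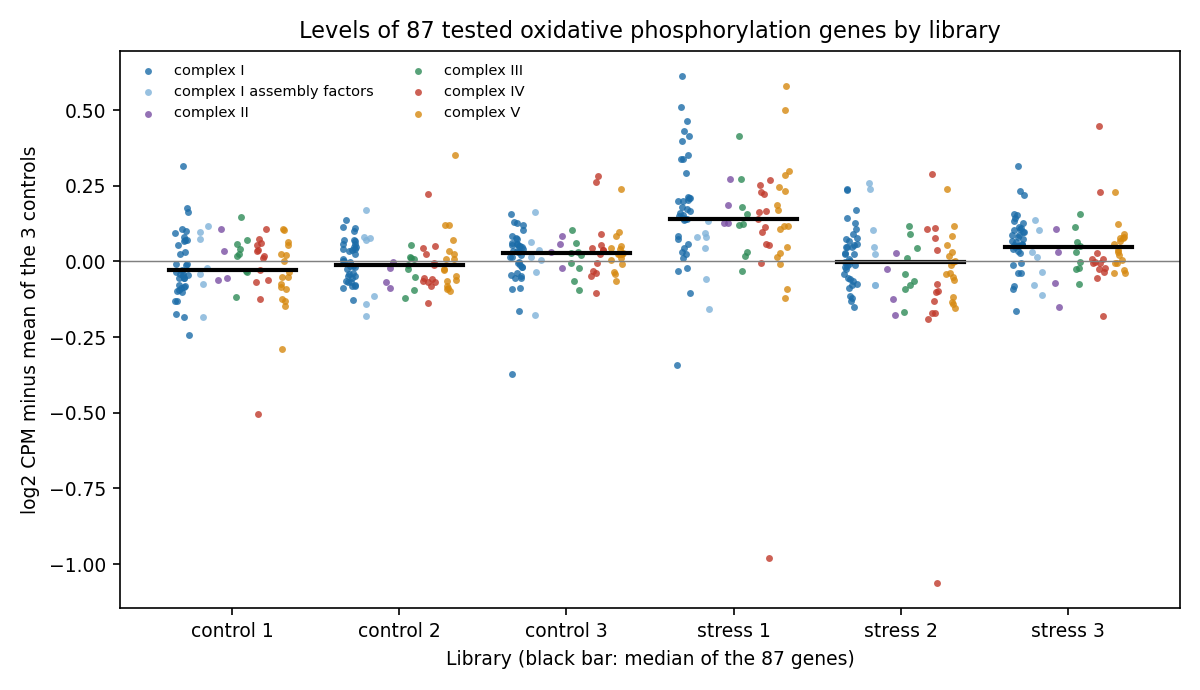
Log2 CPM minus the mean of the 3 controls for each of the 87 tested genes in each library. Points are genes coloured by complex and black bars are medians, which lie at 0.14 in stress replicate 1 and between -0.03 and 0.05 in the other 5 libraries.

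As a share of all gene counts, the 93 genes took 0.885%, 0.898% and 0.915% in controls and 0.977%, 0.888% and 0.918% in stress libraries, or 0.899 ± 0.0153% against 0.928 ± 0.0455% (SD, n = 3). The groups overlapped. The spread among these genes in controls was small, with a median SD of log2 CPM of 0.075 against 0.118 over all tested genes. Their intervals were also comparatively narrow. The genes were more abundant per kb of transcript than most tested genes, and the shares given here were not matched for abundance. The 95% interval of the log2 fold change from limma-voom lay wholly within 1.25-fold of no change for 59 of the 87 genes, or 67.8%, against 36.2% of all tested genes. It lay within 1.5-fold for 83 and within 2-fold for 85. Outside 1.5-fold were Ndufa12, by its upper bound of 0.59, and the low genes Ndufa4l2, Cox6a2 and Cox7a1. For most of these genes, then, the intervals left out a change of 1.5-fold in either direction.

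**Figure D3:**
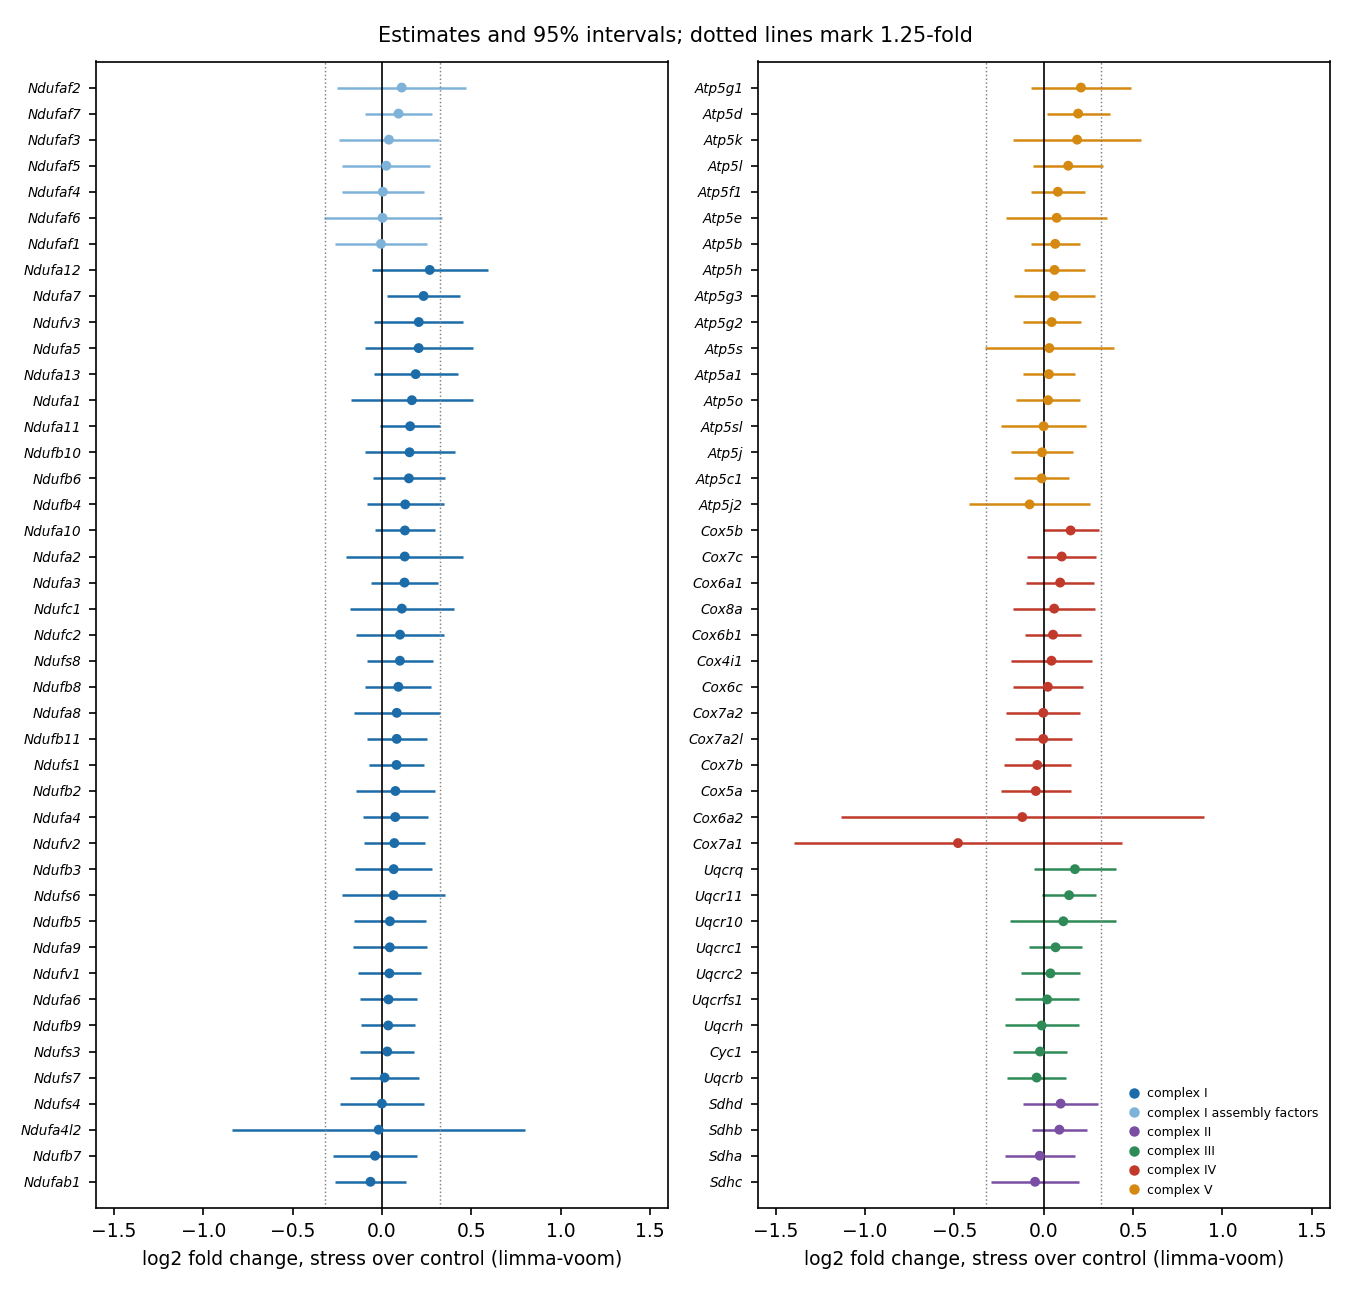
Log2 fold change of stress over control for 86 of the 87 tested genes with 95% intervals from limma-voom, coloured by complex, with dotted lines at 1.25-fold. Intervals lay within 1.5-fold for 83 of the 87 genes, and those of Ndufa7 and Atp5d did not reach 0 before adjustment for multiple tests.

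6 genes had all 3 stress libraries above all 3 controls: Ndufa7, Ndufa11, Uqcr11, Cox5b, Atp5d and Atp5f1. The share of all tested genes with that pattern was 6.76%. 0 of the 87 had all stress libraries below the controls, against 7.84% of all tested genes. The 6 were still above the controls without stress replicate 1, when the pattern held for 7 genes, the other being Cox6a2, against 14.5% of all tested genes. Without it 5 genes lay wholly below the controls, Ndufs6, Ndufb7, Sdhc, Uqcrb and Cox7a1, against 14.6%. These genes are listed by the pattern of their values, as a description.

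Complex I, the NADH dehydrogenase, is the largest of the complexes, and 2 of its subunits were among the 6. Its median log2 fold change was 0.08, with 32 of 37 tested genes above 0, and without stress replicate 1 it was 0.04, with 26 of 37. Ndufa7, an accessory subunit (chr17:33824572-33838317 on GRCm38), measured 36.3, 41.9 and 41.5 CPM in controls and 44.2, 47.0 and 49.6 in stress libraries. All 3 stress values lay above the controls, and the lowest value of all was that of control 1. The means were 39.9 ± 3.10 and 46.9 ± 2.68 CPM (SD, n = 3), and its log2 fold change was estimated as 0.23 (SE 0.09), at an adjusted p of 0.534 in edgeR's quasi-likelihood test and a value of 0.27 without stress replicate 1.

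Ndufa11, an accessory subunit of the membrane arm (chr17:56717767-56722141), measured 35.8, 37.6 and 36.6 CPM in controls and 41.0, 41.3 and 40.5 in stress libraries. Its stress libraries were close to each other and above the controls, at a log2 fold change of 0.16 (SE 0.07; adjusted p = 0.618, edgeR's quasi-likelihood test), the same without stress replicate 1. Its exons overlap those of Vmac on the other strand over 70 bases. Ndufa12, an accessory subunit placed late in assembly (chr10:94198720-94221443), had the largest log2 fold change of the 87, 0.29 (SE 0.14). It measured 64.0, 56.9 and 59.3 CPM in controls and 91.8, 63.1 and 64.5 in stress libraries, so that stress replicate 1 alone was far from the rest and the groups overlapped. Without that library its log2 fold change was 0.09. Ndufv3, a small subunit of the NADH-oxidising module, had the same form, with 40.3 to 46.2 CPM in controls and 57.3, 46.9 and 45.0 in stress libraries, and a log2 fold change of 0.21 that was 0.10 without stress replicate 1. Core subunits, which carry the electrons, were also read, chosen for that role after values were seen. Their log2 fold changes were 0.10 for Ndufs8, 0.04 for Ndufv1, which binds NADH, 0.07 for Ndufv2, 0.08 for Ndufs1, 0.03 for Ndufs3 and 0.01 for Ndufs7. Without stress replicate 1, Ndufs8 was at 0.05, Ndufs1 at 0.05 and Ndufv1 at -0.01.

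The 7 Ndufaf assembly factors, which help build complex I and are not part of the finished enzyme, had a median of 0.02, with 6 of 7 above 0, or 0.01 with 4 of 7 without stress replicate 1. 1 of the 7 was highest in stress replicate 1. The lowest p among them was that of Ndufaf7, a methyltransferase acting on a core subunit, which measured 30.6, 33.2 and 30.8 CPM in controls and 33.6, 32.6 and 34.7 in stress libraries. Its groups overlapped, and the log2 fold change was 0.09 (SE 0.08). The other named factors were Ndufaf2 at 0.11, Ndufaf3 at 0.04 and Ndufaf5 at 0.02, none beyond its SE. Without stress replicate 1, Ndufaf3 was at 0.14 and Ndufaf5 at -0.01, and without stress replicate 2 Ndufaf3 was at -0.06.

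Complex II, the succinate dehydrogenase that also serves the tricarboxylic acid cycle, was evenly split. Sdha, the flavoprotein that oxidises succinate, measured 364, 318 and 333 CPM in controls and 369, 310 and 321 in stress libraries, and Sdhb, the iron-sulfur subunit, 88.5, 91.9 and 95.9 against 101, 93.8 and 99.2. Replicate 1 was the highest library of both groups for Sdha, and the groups overlapped for both genes. Log2 fold changes were -0.02 (SE 0.09) and 0.09 (SE 0.07). The membrane anchors Sdhc and Sdhd, which hold the coenzyme Q site, had -0.04 (SE 0.11) and 0.10 (SE 0.09). All 4 were highest in stress replicate 1, and without it the values were -0.10 for Sdha, 0.07 for Sdhb, -0.17 for Sdhc and 0.00 for Sdhd.

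Complex III, the cytochrome bc1 complex, had 6 of 9 genes above 0 and a median of 0.04, which was -0.02 without stress replicate 1, with 4 of 9 above 0. Uqcr11, its smallest accessory subunit (chr10:80402997-80406830), measured 76.3, 78.6 and 79.2 CPM in controls and 88.3, 83.0 and 87.1 in stress libraries. The groups did not overlap, and the log2 fold change of 0.14 (SE 0.07) had an adjusted p of 0.594 in edgeR's quasi-likelihood test and was 0.12 without stress replicate 1. Uqcrq, which sits beside cytochrome b, had 0.17 (SE 0.10), and Uqcrc1, a core protein of the complex, 0.07 (SE 0.07), or 0.04 without stress replicate 1. Uqcr10, another small subunit, measured 79.5 CPM in stress replicate 1 and 55.8 to 62.6 in the other 5 libraries, and its log2 fold change of 0.12 was -0.05 without that library. Uqcrh, the hinge protein whose upstream sequence is printed above, measured 129, 125 and 119 CPM in controls and 138, 110 and 122 in stress libraries. Those ranges overlapped, at a log2 fold change of -0.01 (SE 0.09), or -0.09 without stress replicate 1. Cyc1, cytochrome c1, had -0.02, and Uqcrfs1, the Rieske protein, 0.02, or -0.03 without stress replicate 1, both added for their role after values were seen.

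Complex IV, cytochrome c oxidase, has several subunits with a form typical of muscle or of other tissues, and the forms differed widely in level. 13 of its 18 genes were tested, with 8 above 0, a median of 0.03, and -0.05 without stress replicate 1, when 5 of 13 were above 0. Cox5b, which binds zinc (chr1:36691449-36693681), measured 122, 132 and 130 CPM in controls and 139, 138 and 150 in stress libraries. The groups did not overlap, the means were 128 ± 5.18 and 142 ± 6.67 CPM (SD, n = 3), and the log2 fold change was 0.15 (SE 0.07; adjusted p = 0.576, edgeR's quasi-likelihood test), or 0.17 without stress replicate 1. Cox7c and Cox6a1, small structural subunits, each had 0.10 (SE 0.09 and 0.08), and without stress replicate 1 they were at 0.04 and 0.03. Cox8a measured 251, 250 and 225 CPM in controls and 291, 225 and 242 in stress libraries. Stress replicate 1 was the only one of the 3 above the controls for Cox8a, and its log2 fold change of 0.07 was -0.05 without that library.

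The tissue forms were compared per kilobase (kb) of the principal annotated transcript, since CPM alone cannot rank genes of different length. Cox4i1 reached 413 ± 27.2 CPM per kb in controls (SD, n = 3), while Cox4i2, a lung form, was near the limit of detection with 5 to 8 counts in each library. Cox6a1 reached 285 ± 11.2 CPM per kb and Cox6a2, the heart and muscle form, 3.27 ± 0.982. Cox8a reached 439 ± 27.1, Cox8b, the muscle form, had 0 to 11 counts in each library, and Cox8c was listed at 0 in all 6. Cox7a2 reached 163 ± 5.4 and the related Cox7a2l 129 ± 6.24, while Cox7a1, the heart and muscle form, was at 3.10 ± 0.596. Cox6b1 reached 209 ± 4.81 against 5 to 17 counts per library for the testis form Cox6b2. Cox7b reached 117 ± 4.21 against 1 to 4 counts per library for Cox7b2. In each pair the form typical of muscle, lung or testis lay far below its partner, by more than their SDs where both had one.

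None of these forms passed the test between stress and control. Cox4i1 had a log2 fold change of 0.05 (SE 0.10), Cox6b1 0.05 (SE 0.07), Cox7b -0.03 (SE 0.08), Cox7a2 0.00 and Cox7a2l -0.00. Without stress replicate 1 these were -0.06 for Cox4i1, 0.01 for Cox6b1, -0.10 for Cox7b, -0.08 for Cox7a2 and -0.03 for Cox7a2l, and without stress replicate 2 Cox4i1 was at 0.12. Cox7a1 measured 1.09, 1.08 and 1.49 CPM in controls and 1.2, 0.466 and 1.04 in stress libraries, and Cox6a2 measured 1.45, 2.55 and 2.66 against 0.982, 2.68 and 3.01. At such levels a library holds few counts, and the log2 fold changes of -0.42 (SE 0.40) and -0.01 (SE 0.45) were wide. Without stress replicate 1 they were -0.66 and 0.34. Cox8b had 2, 0 and 2 counts in controls and 11, 4 and 1 in stress libraries, and Cox6b2 had 6, 7 and 9 against 17, 5 and 6. Both were highest in stress replicate 1, and neither was tested.

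Complex V, the ATP synthase, had 14 of 17 genes above 0 and a median of 0.06, which was -0.002 without stress replicate 1, when 8 of 17 were above 0. Atp5b, the catalytic beta subunit, measured 970, 1022 and 1021 CPM in controls and 1089, 1015 and 1046 in stress libraries, which overlapped at a log2 fold change of 0.06 (SE 0.06), or 0.04 without stress replicate 1. Atp5d, the delta subunit of the central stalk (chr10:80138632-80145818), measured 90.3, 81.2 and 87.9 CPM in controls and 102, 102 and 91.9 in stress libraries. Its groups did not overlap, with means of 86.5 ± 4.73 and 98.8 ± 5.92 CPM (SD, n = 3). Its log2 fold change was estimated as 0.19 (SE 0.08), at an adjusted p of 0.534 in edgeR's quasi-likelihood test, and 0.17 without stress replicate 1. Its exons overlap those of Cbarp on the other strand over 68 bases. Atp5f1, the b subunit of the peripheral stalk, measured 187, 204 and 206 CPM in controls and 216, 206 and 208 in stress libraries. The groups were separated by less than 1 CPM between control 3 and stress replicate 2, and its log2 fold change was 0.08 (SE 0.07). Its exons overlap those of Wdr77 and Gm42890 on the other strand over 540 bases. Of the 100-base stretches of its transcript, 16.8% occur in another annotated gene.

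The ring that turns in the membrane is built of subunit c, which 3 genes encode as the same mature protein. Atp5g1 measured 99.8, 89.1 and 90.2 CPM in controls and 131, 98.5 and 95.3 in stress libraries, with a log2 fold change of 0.22 (SE 0.12) that was 0.06 without stress replicate 1. Atp5g2 measured 58.3, 62.7 and 58.4 against 60.9, 61.1 and 63.2, at 0.04 (SE 0.07). Atp5g3 measured 115, 105 and 113 against 131, 101 and 117, at 0.06 (SE 0.10), or -0.03 without stress replicate 1. The groups overlapped for all 3 genes, and for Atp5g1 and Atp5g3 stress replicate 1 was the highest library. Atp5k, a small subunit that helps form dimers of the synthase, measured 93.5 CPM in stress replicate 1 and 58.4 to 67.3 elsewhere, and its log2 fold change of 0.21 (SE 0.16) was -0.02 without that library. Atp5l, which belongs to the same dimer region, had 0.14 (SE 0.09), or 0.06 without it. Sequence shared with other annotated genes limits several of these counts: 100% of the 100-base stretches of the Atp5g2 transcript, 69.0% for Atp5l and 57.3% for Atp5g1 occur in another gene, while 62 of the 93 genes share none.

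**Figure D4:**
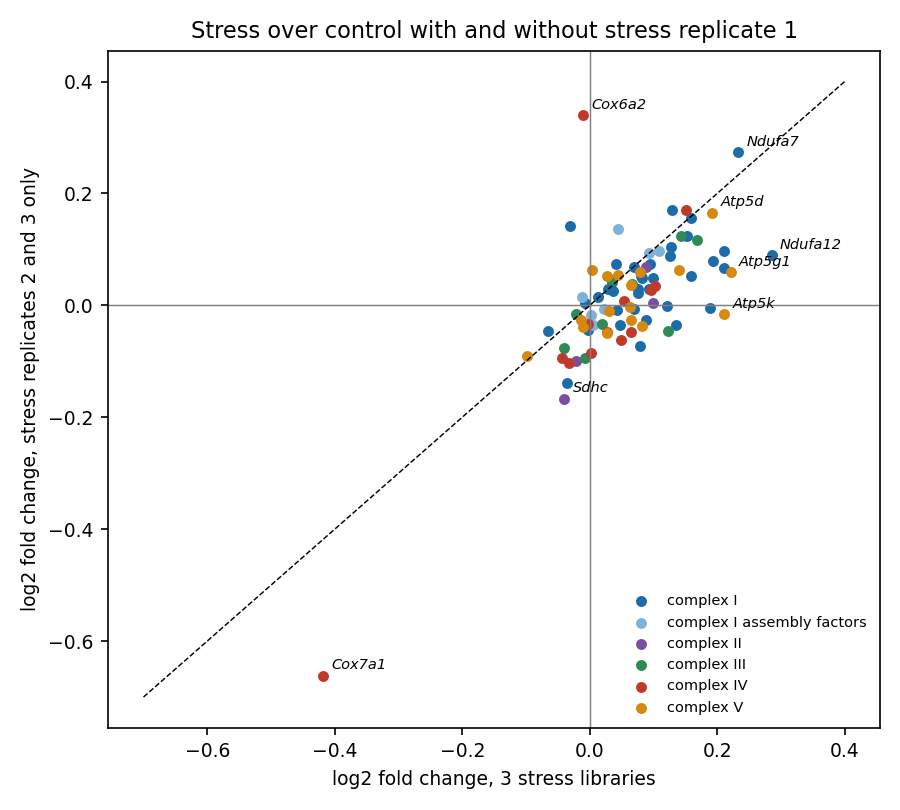
Log2 fold change of stress over control with all 3 stress libraries (horizontal axis) and with stress replicates 2 and 3 only (vertical axis) for the 87 tested genes, coloured by complex. The dashed line marks equal values, and Ndufa12 and Atp5k lie well below it, at 0.29 and 0.21 with all libraries and 0.09 and -0.02 without stress replicate 1, while Ndufa7 and Atp5d stay near it.

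The genes were among the most abundant transcripts of the tissue. Per kb of transcript, the median percentile of the 86 tested genes ranked was 94.1 among all tested genes, and 66 of the 86 were above the 90th percentile. Median control levels were 62.2 CPM per kb in complex I, 71.0 in complex II, 108 in complex III, 148 in complex IV and 156 in complex V. The medians of complexes IV and V lay apart by little more than the SD of their library medians, 5.98 and 6.56, and their order was not tested. The assembly factors lay far lower at 15. Atp5b led with 524 ± 15.6 CPM per kb (SD, n = 3), followed by Cox8a at 439 ± 27.1 and Cox4i1 at 413 ± 27.2, whose levels overlapped, and by Atp5a1, the alpha subunit that pairs with beta, at 354. Ndufa4, first assigned to complex I and later found with complex IV, led the Nduf genes at 231 ± 11.2, and its paralogue Ndufa4l2, known as a hypoxia-induced gene, was at 1.13 ± 0.315. Their log2 fold changes were 0.08 (SE 0.08) and -0.03 (SE 0.36), and without stress replicate 1 they were 0.02 and 0.14. The order of the complexes depends on the length used. Over the total exonic length of all annotated transcripts the medians were 36.3, 51.2, 69.2, 94.2 and 44.8 for complexes I to V, which puts complex V below complex II.

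**Figure D5:**
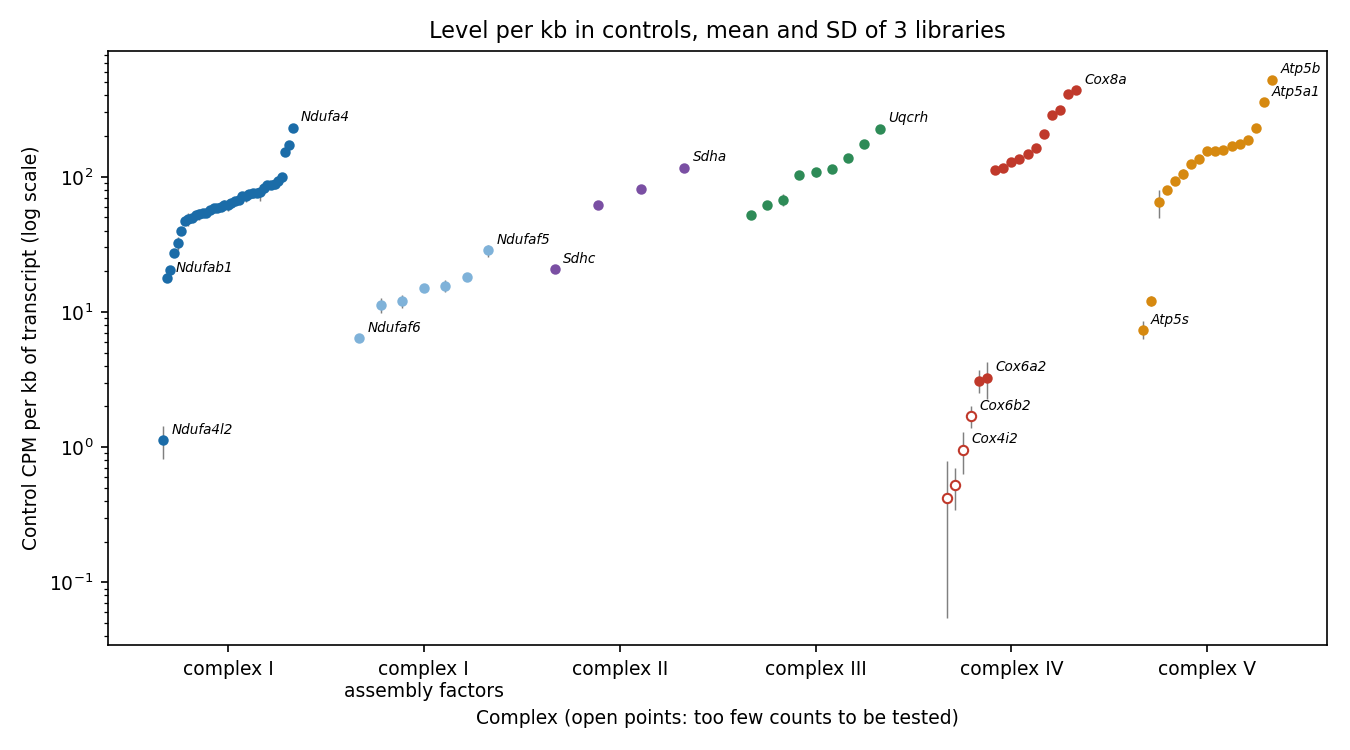
Mean control level in CPM per kb of principal transcript, on a log scale, for the 91 genes with counts in controls, by complex, with error bars of 1 SD over 3 libraries and open points for genes with too few counts to be tested. Most subunits lie between 50 and 524 CPM per kb, and the tissue forms of complex IV and Ndufa4l2 lie below 5.

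6 genes were not tested. Cox4i2, Cox6b2, Cox7b2, Cox8b and Cox8c had few counts or none. Ndufs5, a complex I subunit found in most tissues, was listed at 0 in all 6 libraries. How its reads were counted is not stated, so that 0 is not read as a level of its transcript, and 27.0% of its 100-base stretches are shared with another annotated gene. Most of the genes have short transcripts, with a median length of 863 bases against 2922 for all tested genes. Among all tested genes, those under 1 kb had a median log2 fold change of 0.02 with 54.7% above 0, and the abundant genes, of average log2 CPM 5 or more, had 0.01 with 52.9%. Oxidative phosphorylation genes under 1 kb had 0.08 with 82.4% above 0, and those of 1 kb or more had 0.04 with 71.4%.

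Genes of the surrounding pathway gave the same picture of no calls. Assembly factors outside the symbol rule were measured, 9 for complex I, 2 for II, 5 for III and 19 for IV. For complex V, 5 genes of assembly and control were measured. Of all these genes 0 passed edgeR's quasi-likelihood test, with a lowest adjusted p of 0.624. 0 of these 40 were at an unadjusted p under 0.05. Ecsit, which works in complex I assembly, had a log2 fold change of 0.20 (SE 0.10), with control 1 at 30.4 CPM and the other 5 libraries at 36.0 to 41.3. Uqcc1, a complex III assembly factor, measured 53.4, 54.9 and 52.0 CPM in controls and 49.99, 46.8 and 47.5 in stress libraries, which did not overlap, at -0.15 (SE 0.07; adjusted p = 0.624, edgeR's quasi-likelihood test). Ttc19, also of complex III, was the reverse, with 102, 110 and 110 against 116, 112 and 118, at 0.11 (SE 0.07). Timmdc1 of complex I had 0.10 (SE 0.09), Coa5 of complex IV 0.13 (SE 0.10, or 0.03 without stress replicate 1), Cox11, which delivers copper to complex IV, -0.19 (SE 0.11), Atpaf1 of complex V 0.09 (SE 0.09) and Usmg5 of complex V 0.09 (SE 0.09). For complex II, Sdhaf1 had -0.11 (SE 0.18) and Sdhaf2 0.03 (SE 0.09). Without stress replicate 1, Atpaf1 and Usmg5 were each at 0.05, Sdhaf1 at 0.01 and Sdhaf2 at -0.03.

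Of the 17 carriers of electrons and metabolites, 12 were above 0 with a median of 0.04, or 9 with a median of 0.0009 without stress replicate 1, and 0 passed, with a lowest adjusted p of 0.666 in edgeR's quasi-likelihood test. Cycs, cytochrome c, measured 163, 190 and 187 CPM in controls and 196, 173 and 187 in stress libraries, which overlapped at 0.04 (SE 0.08), or 0.0009 without stress replicate 1. Ucp2, an uncoupling protein, measured 19.98 CPM in stress replicate 1 and 7.84 to 9.66 in the other 5, and its log2 fold change of 0.57 (SE 0.31) was 0.08 without that library. Slc25a27, a mitochondrial carrier of brain, measured 51.3 to 57.7 CPM in controls and 47.7 to 49.1 in stress libraries, at -0.15 (SE 0.08). 13 genes of coenzyme Q synthesis had a median of 0.04, with 8 above 0 and a lowest adjusted p of 0.621. Adck3, a kinase-like protein of that pathway, had 0.33 (SE 0.16), or 0.17 without stress replicate 1, and Pdss1, which makes the side chain, had -0.20 (SE 0.13).

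Among transcriptional regulators of mitochondrial genes most estimates lay below 0. 4 of 17 were above 0 and 13 below, where 49.0% of all tested genes were below. Their median was -0.06, or -0.05 without stress replicate 1, and 0 passed edgeR's quasi-likelihood test. Ppargc1a, the coactivator PGC-1alpha, measured 89.2, 76.6 and 85.0 CPM in controls and 73.1, 61.8 and 63.6 in stress libraries. All stress values lay below the controls, and its log2 fold change was estimated as -0.34 (SE 0.09), at an adjusted p of 0.355 in edgeR's quasi-likelihood test, or -0.41 with an adjusted p of 0.0729 without stress replicate 1. Gabpb1, the partner of GABPA, measured 19.6, 19.3 and 19.5 CPM in controls and 17.1, 17.0 and 16.9 in stress libraries, also without overlap, at -0.19 (SE 0.09; adjusted p = 0.609, edgeR's quasi-likelihood test). The factors whose motifs are counted above, named for that reason, lay within or close to their SE of 0: Nrf1 at 0.09 (SE 0.12), Gabpa at -0.10 (SE 0.10) and Yy1 at 0.02 (SE 0.08), or 0.06, -0.18 and 0.03 without stress replicate 1. Esrra, an estrogen-related receptor, had 0.18 (SE 0.09), with 28.4 to 29.9 CPM in controls and 31.8 to 35.8 in stress libraries, without overlap. Of the 17 regulators, 1 thus lay wholly above the controls and 2 wholly below, against 6.76% and 7.84% of all tested genes.

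Fuel pathways that feed the chain were set beside it. The tricarboxylic acid cycle and pyruvate dehydrogenase list had 11 of 18 genes above 0 and a median of 0.03, which was -0.03 with 7 above 0 without stress replicate 1. For 4 of the 18 all stress libraries lay above the controls, and for 0 below, against 6.76% and 7.84% of all tested genes. Dlat, a subunit of pyruvate dehydrogenase, had 0.22 (SE 0.10), or 0.09 without stress replicate 1, and Pdhb, another, had 0.11 (SE 0.07), or 0.10. Glycolysis had 13 of 19 above 0 and a median of 0.08, or 0.04 without stress replicate 1, and 6 of its 19 genes had all stress libraries above the controls and 1, Ldhb, all below, against the same shares of all tested genes. Pfkl, a phosphofructokinase that commits glucose to glycolysis, measured 205, 184 and 190 CPM in controls and 273, 217 and 234 in stress libraries. The groups did not overlap, and the log2 fold change of 0.32 (SE 0.09) had an adjusted p of 0.384 in edgeR's quasi-likelihood test and was 0.23 without stress replicate 1. Ldha, which turns pyruvate into lactate, measured 165, 171 and 179 CPM against 200, 187 and 194, at 0.17 (SE 0.06; adjusted p = 0.521, edgeR's quasi-likelihood test). Cytosolic ribosomal protein genes, likewise short and abundant, had 32 of 77 above 0 and a median of -0.01, or 17 of 77 and -0.03 without stress replicate 1, and stress replicate 1 was their highest library for 24 of 77. Among them, Rps16 had -0.32 (SE 0.12) and Rps15a -0.15 (SE 0.07). No gene of these 3 lists passed the adjusted threshold of edgeR's quasi-likelihood test. At an unadjusted p under 0.05 there were 0 of the 18 cycle genes, 2 of the 19 glycolysis genes, both higher, and 1 of the 77 ribosomal genes, which was lower, against 3.86% higher and 4.85% lower among all tested genes.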

How the data were processed

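The authors deposited raw read counts for each gene symbol, in a separate file for every library. GRCm38 (mm10) is the build in the submitters' processing notes, which list as tools TopHat2 2.0.9 and HTSeq 0.6.1, edgeR 3.12.0, Trimmomatic 0.33 and FastQC 0.11.3. How reads were counted, by which annotation and with which strand setting, is not stated there, so reads of genes that overlap on opposite strands, as for 29 of the 93 genes, may not be separated. Rows for reads in no gene (59.5% to 63.1%) or ambiguous reads (0.211% to 0.253%) were left out of totals and tests.

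In R 4.3.3, edgeR 4.0.16 kept 14058 genes (filterByExpr), scaled libraries by TMM and compared stress with control by its two-sided quasi-likelihood test, with Benjamini-Hochberg adjustment over all tested genes and a threshold of 0.05. Standard errors and 95% intervals come from limma 3.58.1 (voom), and CPM are scaled by TMM. The fit was tested on simulated counts. All pairs of libraries differed by more than sampling noise (lowest chi-square per degree of freedom 2.97). P-values measure the spread between these samples, which may be technical, and limits of counts cover counting error only. Transcript lengths and positions are from GENCODE M21 on GRCm38 (22708 of 24062 symbols matched 1 gene). Of the 93 genes, 91 matched by their own symbol, 1 through an older symbol, and 1 symbol was carried by 2 annotated genes. Among equally supported principal transcripts the shortest was taken.

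The genes and lists were chosen with earlier results of these data known. The text names, per complex, the 4 tested genes with the smallest p and the most abundant per kb, the paralogue sets, the genes with the smallest p of each list, and others where stated. Printed promoters came from RefSeq. 1 gene enters all counts and is not reported here by name.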

Additional observations from a re-analysis of the deposited data

How the results depend on the processing

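0 of the oxidative phosphorylation genes were called with any scaling, filter, tool, threshold or left-out library tried. Over all tested genes the 4 calls became 107 with DESeq2, 1 with limma-voom and 0 with the replicate number as a block, and leaving out 1 library at a time gave 0 to 41, the 41 without stress replicate 1 and 28 without stress replicate 2. The median log2 fold change of the 87 ran from 0.061 to 0.070 over the other settings and from 0.022 (without stress replicate 1) to 0.094 (without stress replicate 2) over left-out libraries. Genes whose groups did not overlap numbered 5 to 6, where 6.76% of all tested genes lay above and 7.84% below with all 6 libraries. With a library left out they numbered 12 to 26 (the 26 without stress replicate 2), where a smaller group overlaps less easily. Of all genes tested without stress replicate 1, 14.5% lay above and 14.6% below. The share of all genes without stress replicate 2 was not counted, so the 26 is not read as a result about these genes. With the replicate number as a block the median was 0.061. Deviations of same-numbered libraries correlated at 0.137, -0.00759 and 0.0425, and not every library correlated best with its own number. These values show no pairing by number, but with 3 libraries per group they cannot exclude one. Cox7a2 turned from 0.003 to -0.00072 with upper quartile scaling, -0.00016 without a filter, -0.0025 with limma-voom and -0.0035 with the block. Cox7a2l turned from -0.003 to 0.0022 when genes needed 1 CPM in 3 libraries and to 4.293e-05 with DESeq2. Leaving out 1 library turned the sign of 24 named genes, none of them called. Their log2 fold changes ran from -0.099 to 0.035 for Sdha, -0.094 to 0.068 for Uqcrh, -0.037 to 0.032 for Cox7a2l, -0.22 to 0.16 for Ndufa4l2, -0.023 to 0.090 for Cycs, -0.060 to 0.14 for Ndufaf3, -0.30 to 0.34 for Cox6a2, -0.085 to 0.082 for Cox7a2 and -0.056 to 0.093 for Ndufaf5. They ran from -0.17 to 0.025 for Sdhc, -0.045 to 0.22 for Uqcr10, -0.047 to 0.14 for Cox8a, -0.015 to 0.32 for Atp5k, -0.062 to 0.12 for Cox4i1, -0.026 to 0.16 for Atp5g3, -0.23 to 0.014 for Sdhaf1, -0.031 to 0.075 for Sdhaf2 and -0.10 to 0.032 for Cox7b. Among genes named for their role they ran from -0.043 to 0.0013 for Cyc1, -0.049 to 0.080 for Ndufs7, -0.0083 to 0.098 for Ndufv1, -0.0041 to 0.17 for Nrf1, -0.034 to 0.053 for Uqcrfs1 and -0.0028 to 0.050 for Yy1. The longest of tied principal transcripts, an alternative chosen after seeing the data, put the median of complex V at 124 CPM per kb. Per-complex and per-list values without stress replicate 1 were also added after seeing the data.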
